A study of Mus musculus with 9 samples.

Results

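The comparison described here sets whole newborn lenses of *P0-3.9GFPCre* mice against those of non-transgenic *FVB/N* mice, and it uses 6 of the 9 RNA-Seq pools of the series, 3 from each of these lines. *P0-3.9GFPCre* mice were hemizygous for a transgene in which a *Pax6* P0 promoter fragment, with its ectodermal enhancer, drives a fusion of green fluorescent protein and CRE recombinase. The line was on the *FVB/N* strain. The study made hemizygous mice of its CRE lines by crosses to *FVB/N* or to a CRE reporter strain with a floxed cassette. Which cross gave the sequenced lenses is not stated. The *FVB/N* mice carried no transgene and were of the same strain and age. Each pool held 6 lenses from 3 mice, and the labels do not say which litters or sexes the mice came from. The remaining 3 pools, from hemizygous *Le-Cre* mice of the same strain and age, which carry another *Pax6* P0 promoter construct with CRE, entered the statistical model and are given beside the results where a value of theirs helps to place a gene. The p-values describe the spread between pools of mice.

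CRE recombinase cuts and rejoins DNA at loxP sites, and mice that express CRE without any floxed gene serve as the control for effects of the enzyme and of the transgene itself. The *Pax6* P0 promoter is active in the surface ectoderm that forms the lens. The newborn lens consists of a dividing anterior epithelium and of fibre cells, which leave the cell cycle, fill with crystallins and lose their nuclei and organelles. It receives its oxygen through a regressing capillary network and lies in a poorly oxygenated part of the eye.

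Total expected counts were between 23299676 and 26959813 in the *FVB/N* pools and between 20670968 and 23291675 in the *P0-3.9GFPCre* pools. Values are given below as CPM (counts scaled to the normalised library size), which is not corrected for gene length and is compared only within a gene. The crystallins took 39.1% to 43.0% of the counts of each pool. The summed level over 20 retina markers was 74.9 to 81.2 CPM in *FVB/N* and 71.4 to 80.5 CPM in *P0-3.9GFPCre*. Other tissues had higher sums, with 126 to 134 and 82.9 to 134 CPM over 10 endothelium markers. Over 10 red blood cell markers the sums were 108 to 150 and 98.9 to 127 CPM. *FVB/N* replicate 3 stood apart from the other pools. Of 9505 genes with a mean of at least 5 CPM, 58 lay at least 1.5-fold above or below all the other 8 pools in that library, against 0 in *FVB/N* replicate 1, 11 in *FVB/N* replicate 2 and 2, 11 and 5 in *P0-3.9GFPCre* replicates 1, 2 and 3. The sex of the mice also differed between pools. *Xist*, the transcript that silences an X chromosome in female cells, had 0.473 CPM in *FVB/N* replicate 2, 477 and 482 CPM in *FVB/N* replicates 1 and 3, and 1047, 591 and 1423 CPM in the *P0-3.9GFPCre* pools. The summed level of 4 Y-linked genes was 132, 194 and 126 CPM in *FVB/N* and 53.9, 135 and 1.66 CPM in *P0-3.9GFPCre*. The part of these differences in the results was tested only by leaving out pools and by adding the Y-linked share to the model.

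Most genes differed little between *P0-3.9GFPCre* and *FVB/N* lenses. Of 15557 tested genes, 0 (0.0%) passed the cutoff by edgeR's quasi-likelihood test, which asked for a difference of 1.5-fold or more and an adjusted p no larger than 0.05, and the smallest adjusted p was 0.239, shared by *Hspb1*, *Stk40* and *Clic5*. With DESeq2 the number of calls was 1 when fold changes were shrunk by a prior and 11 when they were not. The log2 fold changes had a median of 0.00, with 25th and 75th percentiles of −0.12 and 0.13 and 5th and 95th percentiles of −0.52 and 0.56. The median absolute log2 fold change was 0.12 over all tested genes and 0.08 over the 7677 genes with a mean of at least 10 CPM. The median standard error of a gene was 0.15, so that for many genes a change of the size seen here could not have been told from the spread of the pools. Before adjustment, 530 genes (3.41% of those tested) were higher in *P0-3.9GFPCre* with a p under 0.05, and 530 (3.41%) were lower. All 3 transgenic pools lay above all 3 *FVB/N* pools for 937 genes (6.02%) and below them for 924 genes (5.94%). With so few pools, the smallest two-sided p that exact permutation of the labels could reach for any gene is 0.1. In what follows no gene passed the cutoff, and "higher" or "lower" gives the direction of a value, with the unadjusted edgeR p where one is stated.

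**Figure D1:**
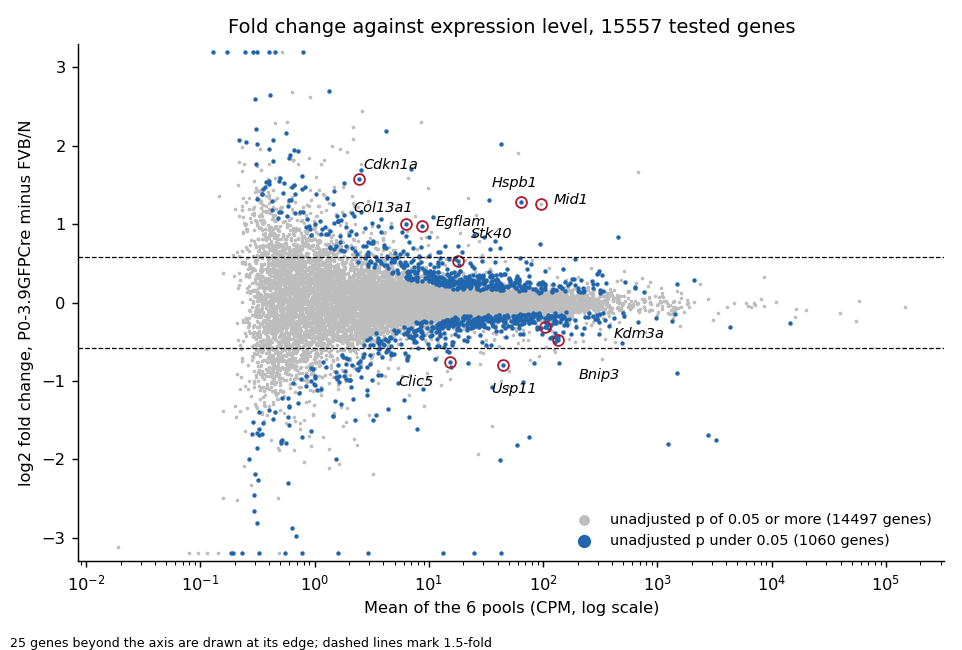
Fold change of each of the 15557 tested genes (vertical axis, log2, *P0-3.9GFPCre* minus *FVB/N*) against its mean over the 6 pools (horizontal axis, CPM on a log scale); blue points are the 1060 genes with an unadjusted edgeR p under 0.05 and dashed lines mark 1.5-fold. The cloud narrows as the level rises, and genes past 1.5-fold are mostly low; 25 genes beyond the vertical axis are drawn at its edge.

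The larger fold changes sat mainly among genes with few reads or with reads that could not be placed with certainty. At least 2-fold differences were estimated for 462 genes, 250 higher and 212 lower in *P0-3.9GFPCre*. Of these, 327 had a mean below 1 CPM and 266 had an assignment uncertainty of 10% or more of their count, this being the standard deviation that RSEM gives for dividing reads between similar genes, and 419 met one or the other condition. The 43 that remained were 21 higher and 22 lower, and their groups of pools did not overlap for 14 of the higher and 5 of the lower genes. The shares over all tested genes were 6.02% and 5.94%, but the 43 were chosen by fold change, which favours a lack of overlap. The 14 included *Xist* and the 5 the Y-linked *Ddx3y*. The Y-linked *Uty*, *Kdm5d* and *Eif2s3y* were also among the 22, and the sex of the mice differed between pools. Among the 22 lower genes were *Rn18s-rs5*, *AY036118*, *Mir6240* and *Lars2*, 4 of 5 ribosomal-RNA-like transcripts examined, whose summed level ran 11340, 18680 and 3698 CPM in *FVB/N* and 6641, 1848 and 1654 CPM in *P0-3.9GFPCre*. *Cwc22*, a splicing factor, was among them too, and it rested on *FVB/N* replicate 3, with 16.3, 18.4 and 168 CPM in *FVB/N* and 15.4, 17.5 and 17.4 CPM in *P0-3.9GFPCre*. Among the 7677 genes of at least 10 CPM, 28 were higher and 38 lower by 1.5-fold or more.

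Pools of different lines were hardly farther apart than pools of one line. The median absolute log2 difference between a pair of pools was 0.16 to 0.20 within *FVB/N*, 0.18 to 0.19 within *P0-3.9GFPCre* and 0.18 to 0.23 between them. The pairs with the largest distance between the lines all included *FVB/N* replicate 3, at 0.19 to 0.23, whereas the pairs of *P0-3.9GFPCre* with *FVB/N* replicate 1 lay at 0.18. The 3 transgenic pools varied among themselves about as much as the *FVB/N* pools did, with a median SD of log2 CPM of 0.16 in each line.

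**Figure D2:**
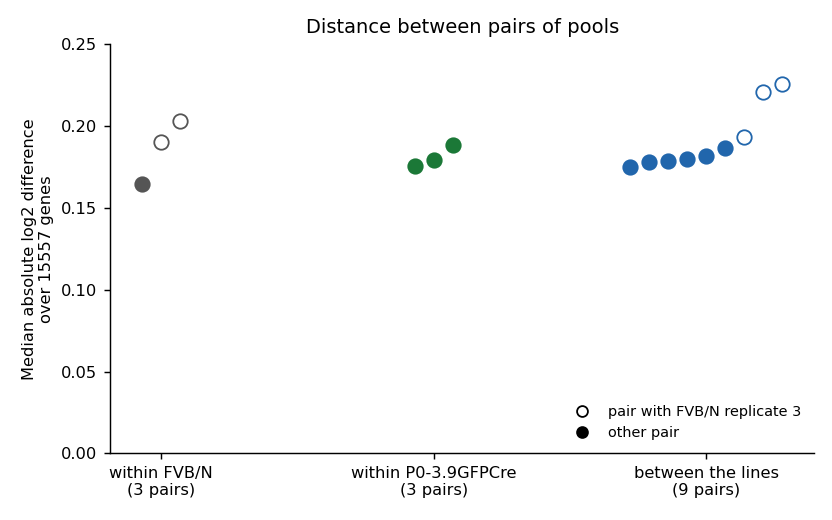
Distance between pairs of pools (vertical axis, median absolute log2 difference over the 15557 tested genes) within *FVB/N*, within *P0-3.9GFPCre* and between them; each point is 1 pair and open points are pairs with *FVB/N* replicate 3. The 3 pairs within *P0-3.9GFPCre* lie between 0.18 and 0.19, in the range of the 9 pairs between the lines, and the farthest pairs between the lines are open points.

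*Hspb1*, which encodes a small heat shock protein that keeps damaged proteins from aggregating and shares its core domain with the α-crystallins, was the gene with the smallest p. It lies on chromosome 5 from 135887919 to 135889563 of GRCm38. Its level was 36, 36.9 and 38.6 CPM in *FVB/N* replicates 1, 2 and 3 and 101, 62.2 and 109 CPM in the *P0-3.9GFPCre* replicates. The *FVB/N* pools were within 3 CPM of each other, whereas transgenic replicate 2 lay well below replicates 1 and 3 and still above every *FVB/N* pool. The log2 fold change was 1.29 with a standard error of 0.19 (edgeR, unadjusted p = 3.17e-05, adjusted p = 0.239), and DESeq2 called the gene with its prior (adjusted p = 0.00197) and without it (adjusted p = 0.000351). Leaving out *P0-3.9GFPCre* replicate 2, edgeR called it as well, at a log2 fold change of 1.503 (adjusted p = 0.0101). *Le-Cre* pools had 120, 84.1 and 118 CPM.

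The promoter of *Hspb1* is shown because heat shock factors bind paired inverted copies of the letters GAA, here searched for as GAANNTTC, which reads the same on both strands. The 300 bases from 250 before to 50 after the annotated start (RefSeq, GRCm38.p6, chr5:135887669-135887968, plus strand) hold it at 2 places, 117 and 97 bases before the start, printed in capitals:
Hspb1 promoter: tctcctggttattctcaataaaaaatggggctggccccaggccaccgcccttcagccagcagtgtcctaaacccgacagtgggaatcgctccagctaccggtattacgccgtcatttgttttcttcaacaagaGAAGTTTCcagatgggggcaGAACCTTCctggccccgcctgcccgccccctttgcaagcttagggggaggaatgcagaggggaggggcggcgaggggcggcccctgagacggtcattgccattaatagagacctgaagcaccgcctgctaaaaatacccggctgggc
Of all 32851 promoter windows, 7.86% held the letters. Counted by gene, 9.04% of 27025 genes held them in any of their windows, as did 9 of 20 heat shock chaperone genes and 4 of 7 small heat shock protein genes that have a window. The 2 windows of *Dnajb1*, another gene of the chaperone list, do not hold them. A match is a feature of the letters only, and binding was not measured.

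Among the other genes of the heat shock system, few were below the unadjusted threshold. Of 7 tested small heat shock protein genes, *Hspb1* and *Hspb8* were higher at an unadjusted p under 0.05 and 0 were lower, and the median log2 fold change was −0.05. The study's heatmap of changed genes, chosen on these same samples, holds *Hspb1*, so its place in this count is not independent evidence. *Hspb8* had 3.78, 3.91 and 6.10 CPM in *FVB/N* and 7.03, 6.01 and 6.73 CPM in *P0-3.9GFPCre*, so the groups overlapped. Of 24 tested heat shock chaperones, 2 (8.33%) were higher and 0 lower, against 3.41% of all genes in each direction, and 18 were higher in value, with a median of 0.05. *Dnajb1*, a co-chaperone of HSP70 and a classical heat shock gene, had 276, 246 and 254 CPM in *FVB/N* and 330, 283 and 384 CPM in *P0-3.9GFPCre*, with no overlap and a log2 fold change of 0.36 (standard error 0.10, edgeR, unadjusted p = 0.00371). *Serpinh1*, the collagen chaperone HSP47, differed by a log2 fold change of 0.17. Proteasome subunit genes, which encode the machine that degrades ubiquitinated proteins, were higher in 4 of 32 (12.5%) and lower in 0, namely *Psma3*, *Psmb2*, *Psma2* and *Psmb3*, by log2 fold changes of 0.12 to 0.26. In the fits that left out 1 pool, the number of higher proteasome genes was 2 to 4.

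**Figure D3:**
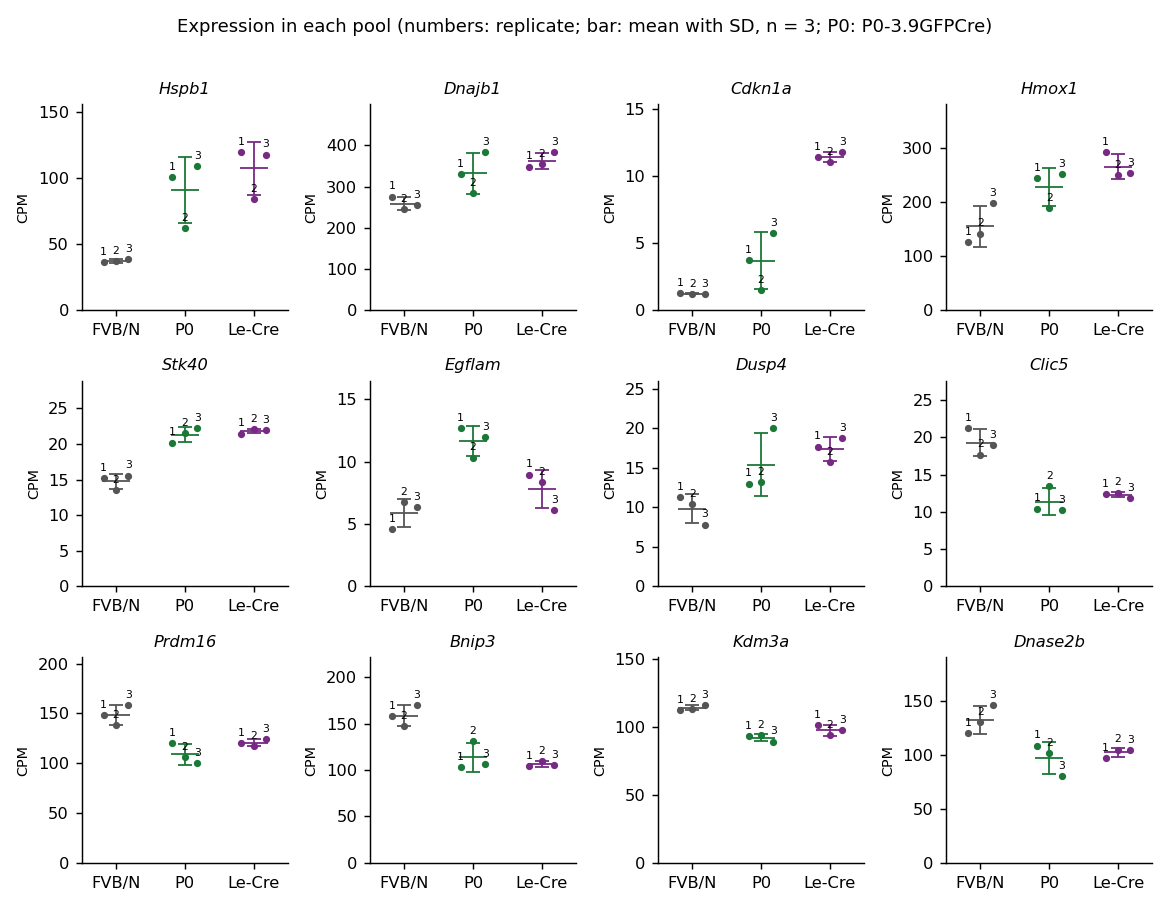
Expression of 12 genes in each pool (vertical axes, CPM from 0) of *FVB/N*, *P0-3.9GFPCre* (P0) and *Le-Cre*; points are pools with their replicate numbers, and bars are means with SD (n = 3 pools). *P0-3.9GFPCre* replicate 2 is the lowest transgenic pool for *Hspb1* and *Cdkn1a* and the highest for *Bnip3*, and the *P0-3.9GFPCre* pools of *Kdm3a*, 89.4 to 94.3 CPM, lie below all *FVB/N* pools, 113 to 116 CPM.

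The other genes with the smallest p among those higher in *P0-3.9GFPCre* had mixed functions, and most were low. *Stk40*, a serine/threonine kinase-like gene on chromosome 4 from 126103957 to 126141029, had 15.2, 13.6 and 15.6 CPM in *FVB/N* and 20.2, 21.5 and 22.2 CPM in *P0-3.9GFPCre* (log2 fold change 0.53, standard error 0.08, edgeR, unadjusted p = 4.15e-05). *Egflam*, which encodes the matrix protein pikachurin, lies on chromosome 15 from 7206120 to 7398395 and had 4.61, 6.75 and 6.35 CPM against 12.7, 10.3 and 11.9 CPM (log2 fold change 0.98, standard error 0.18, edgeR, unadjusted p = 0.000185). In both genes the pools of a line were close together. The genes of this paragraph chosen by p had to have pools that do not overlap, so their lack of overlap is no result. *Col13a1*, a transmembrane collagen, had 4.31, 4.77 and 3.48 CPM in *FVB/N* and 7.81, 6.69 and 10.7 CPM in *P0-3.9GFPCre*. *Kcnj10*, an inwardly rectifying potassium channel, had 1.59, 1.63 and 1.51 CPM against 4.20, 2.47 and 3.86 CPM. *Galnt2*, which starts mucin-type O-glycosylation, had 70.5, 55.7 and 84.2 CPM against 121, 127 and 105 CPM, but its assignment uncertainty was 9.05% of the count. These 3 genes differed by log2 fold changes of 1.0, 1.15 and 0.75. The remaining genes chosen in this way were *Lifr*, the leukaemia inhibitory factor receptor, *Rgs8* and *Rgs16*, regulators of G-protein signalling, *Comtd1*, *Rab36* and *Cdkn1a*, with log2 fold changes of 0.34 to 1.58. Of the genes that only DESeq2 without a prior called, the prostaglandin F receptor gene *Ptgfr* had 35.6, 32.5 and 26.9 CPM against 46.3, 39.1 and 68.9 CPM.

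*Rgs16* separated *P0-3.9GFPCre* from the other 6 pools, including those of *Le-Cre*. It had 2.76, 2.71 and 1.80 CPM in *FVB/N*, 3.95, 4.41 and 5.92 CPM in *P0-3.9GFPCre* and 2.81, 2.61 and 2.76 CPM in *Le-Cre*. Among the genes with a mean of at least 1 CPM and an assignment uncertainty under 10%, 4 lay at least 1.25-fold above all the other 6 pools in every *P0-3.9GFPCre* pool. They were *Rgs16*, *Upp1*, *Gm8113* and *Gm26797*, named after their values were seen. In the direct test of *Le-Cre* against *P0-3.9GFPCre* over 105 named genes, 0 had an adjusted p of at most 0.05 by edgeR (smallest adjusted p = 0.285) and 33 had an unadjusted p under 0.05, against 7.88% of all tested genes. Since many of the named genes were chosen for their *P0-3.9GFPCre* values, which enter this comparison too, nothing is read from that count.

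Genes lower in *P0-3.9GFPCre* with the smallest p included several of middle to high level. *Clic5*, a member of the chloride intracellular channel family that links membranes to the actin cytoskeleton, lies on chromosome 17 from 44188584 to 44280172. Its level was 21.2, 17.7 and 19 CPM in *FVB/N* and 10.4, 13.5 and 10.2 CPM in *P0-3.9GFPCre*, a log2 fold change of −0.76 (standard error 0.12, edgeR, unadjusted p = 4.60e-05). It was the only gene among the 3 with the smallest adjusted p that was lower, and the *Le-Cre* pools, at 12.4, 12.6 and 11.9 CPM, lay in the range of the *P0-3.9GFPCre* pools. *Prdm16*, a zinc finger transcription regulator on chromosome 4 from 154316125 to 154636873, had 149, 138 and 159 CPM in *FVB/N* and 120, 106 and 100 CPM in *P0-3.9GFPCre* (log2 fold change −0.45, standard error 0.08). *Dmrta2*, a DM-domain transcription factor, had 43.7, 41.3 and 45.0 CPM against 33.8, 35.6 and 31.6 CPM. *Chrna4*, a nicotinic acetylcholine receptor subunit, had 18.8, 14.6 and 18.6 CPM against 10.6, 12.4 and 11.1 CPM, and DESeq2 without a prior called it. All 4 genes were chosen by p among those whose pools do not overlap, so the gap between the lines follows from the choice. *Kdm3a*, *Bnip3*, *Colgalt2*, *Cmtm4*, *Pnmal2*, *Xlr3a*, *Tbc1d16* and *Rnf213* completed the 12 lower genes chosen by p, with log2 fold changes of −1.44 (*Xlr3a*) to −0.31 (*Kdm3a*), of which *Xlr3a* belongs to a family of near-identical X-linked genes and had an assignment uncertainty of 12.4%.

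Apart from the genes of the study's own heatmap, targets of the hypoxia-inducible factors were the list with the highest share of members on one side. These transcription factors are stable when oxygen is short and switch on genes for glycolysis, oxygen sensing and mitophagy. Of 21 listed targets 20 were tested, 6 of them (30.0%) were lower at an unadjusted p under 0.05 against 3.41% of all tested genes, and 0 were higher. Of the 20, 15 were lower in value, and the median log2 fold change was −0.07, against 0.00 over all genes. Taken by pool, the list median relative to the *FVB/N* mean was 0.065, −0.016 and −0.085 in *FVB/N* and −0.082, −0.104 and −0.071 in *P0-3.9GFPCre*. The summed level of the 21 listed targets was 3369, 3174 and 3109 CPM against 2804, 3408 and 3037 CPM. By either measure the pools of the lines overlapped. The *P0-3.9GFPCre* pools were the lower ones without overlap for 6 of the 20 tested targets, against 5.94% of all genes. These were the same 6 genes, and their lack of overlap follows largely from their choice by p. In the fits that left out 1 pool, 5 to 7 members were lower and 0 or 1 higher, and under the other alternatives 6 were lower and 0 or 1 higher. Because whole lenses were sequenced, fewer cells of a type and less RNA per cell cannot be told apart in this and the following lists.

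The 6 genes act at different points of the response to low oxygen. *Bnip3*, a receptor that marks mitochondria for removal, lies on chromosome 7 from 138890836 to 138909519 and had 158, 148 and 170 CPM in *FVB/N* and 103, 131 and 106 CPM in *P0-3.9GFPCre* (log2 fold change −0.48, standard error 0.09, edgeR, unadjusted p = 0.000251). *Kdm3a*, a histone H3 lysine demethylase on chromosome 6 from 71588972 to 71632990, had 113, 114 and 116 CPM against 93.2, 94.3 and 89.4 CPM (log2 fold change −0.31, standard error 0.06, edgeR, unadjusted p = 0.000197). *Kdm3a* was the more even of the pair, since *P0-3.9GFPCre* replicate 2 was nearer to *FVB/N* than replicates 1 and 3 for *Bnip3*. *Pdk1*, a kinase that keeps pyruvate out of the mitochondria, had 115, 118 and 98.0 CPM in *FVB/N* and 78.4, 95.7 and 77.9 CPM in *P0-3.9GFPCre*. *P4ha1*, the catalytic subunit of collagen prolyl hydroxylase, had 734, 713 and 773 CPM against 590, 679 and 604 CPM. *Ndrg1* had 346, 316 and 342 CPM against 262, 315 and 265 CPM. In *Pdk1*, *P4ha1* and *Ndrg1*, as in *Bnip3*, transgenic replicate 2 was the highest of its line and the nearest to *FVB/N*. *Egln1*, the oxygen-sensing prolyl hydroxylase that marks the factors for degradation, differed by a log2 fold change of −0.22. *P0-3.9GFPCre* replicate 2 was the highest transgenic pool for 13 of the 20 targets (65.0%), against 34.4% of all tested genes. *Slc2a1*, the glucose transporter of the list, went the other way in value, with 1108, 1012 and 911 CPM in *FVB/N* and 956, 1330.0 and 1176 CPM in *P0-3.9GFPCre* (log2 fold change 0.19, edgeR, unadjusted p = 0.112). The *Le-Cre* pools had 104 to 110 CPM of *Bnip3* and 93.9 to 102 CPM of *Kdm3a*.

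The core of the hypoxia response element is ACGTG, which was searched for on both strands of the 300-base promoter windows. It occurred in 19.6% of all windows. Counted by gene, 21.8% of all genes held it in any window, as did 13 of 18 listed targets and 9 of 20 heat shock chaperones. The promoters of *Bnip3* (chr7:138909457-138909756, minus strand) and *P4ha1* (chr10:59323046-59323345, plus strand), both from RefSeq on GRCm38.p6, are shown as 2 windows of lower genes that hold it, with the match in capitals. In *Bnip3* the matches on the 2 strands overlap, 108 and 107 bases before the start, and in *P4ha1* there is 1, at 16 bases before the start:
Bnip3 promoter: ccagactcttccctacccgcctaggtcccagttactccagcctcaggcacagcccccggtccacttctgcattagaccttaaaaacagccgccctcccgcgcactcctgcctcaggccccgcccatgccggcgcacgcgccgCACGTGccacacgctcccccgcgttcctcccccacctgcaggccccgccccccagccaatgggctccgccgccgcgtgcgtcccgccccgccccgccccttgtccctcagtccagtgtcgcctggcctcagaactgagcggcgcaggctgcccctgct
P4ha1 promoter: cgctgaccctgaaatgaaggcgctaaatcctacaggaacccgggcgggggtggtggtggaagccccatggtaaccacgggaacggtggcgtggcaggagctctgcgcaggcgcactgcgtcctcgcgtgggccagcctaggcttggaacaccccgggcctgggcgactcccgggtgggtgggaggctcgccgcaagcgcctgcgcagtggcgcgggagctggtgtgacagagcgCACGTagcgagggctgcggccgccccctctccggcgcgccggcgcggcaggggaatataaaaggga
The windows of *Kdm3a* and *Pdk1* do not hold these letters.

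Glycolysis genes, many of which the same factors control, were 1 higher (3.85%) and 2 lower (7.69%) of 26. The share over all tested genes was 3.41% in each direction. Of the 26, 19 were lower in value, and the median was −0.08. Nuclear genes of the respiratory chain were 6 higher (8.33%) and 1 lower (1.39%) of 72, with a median of 0.00, and with the Y-linked share in the model the counts were 2 higher and 11 lower, so that their direction depended on that covariate. *Ndufa12*, a complex I subunit, had 31.1, 23.0 and 24.9 CPM in *FVB/N* and 31.3, 50.1 and 46.0 CPM in *P0-3.9GFPCre*, whereas *Ndufa1*, another complex I subunit, had 226, 239 and 287 CPM against 222, 162 and 187 CPM. The lines did not overlap for either gene, although replicate 1 of each came within 5 CPM of the other line.

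**Figure D4:**
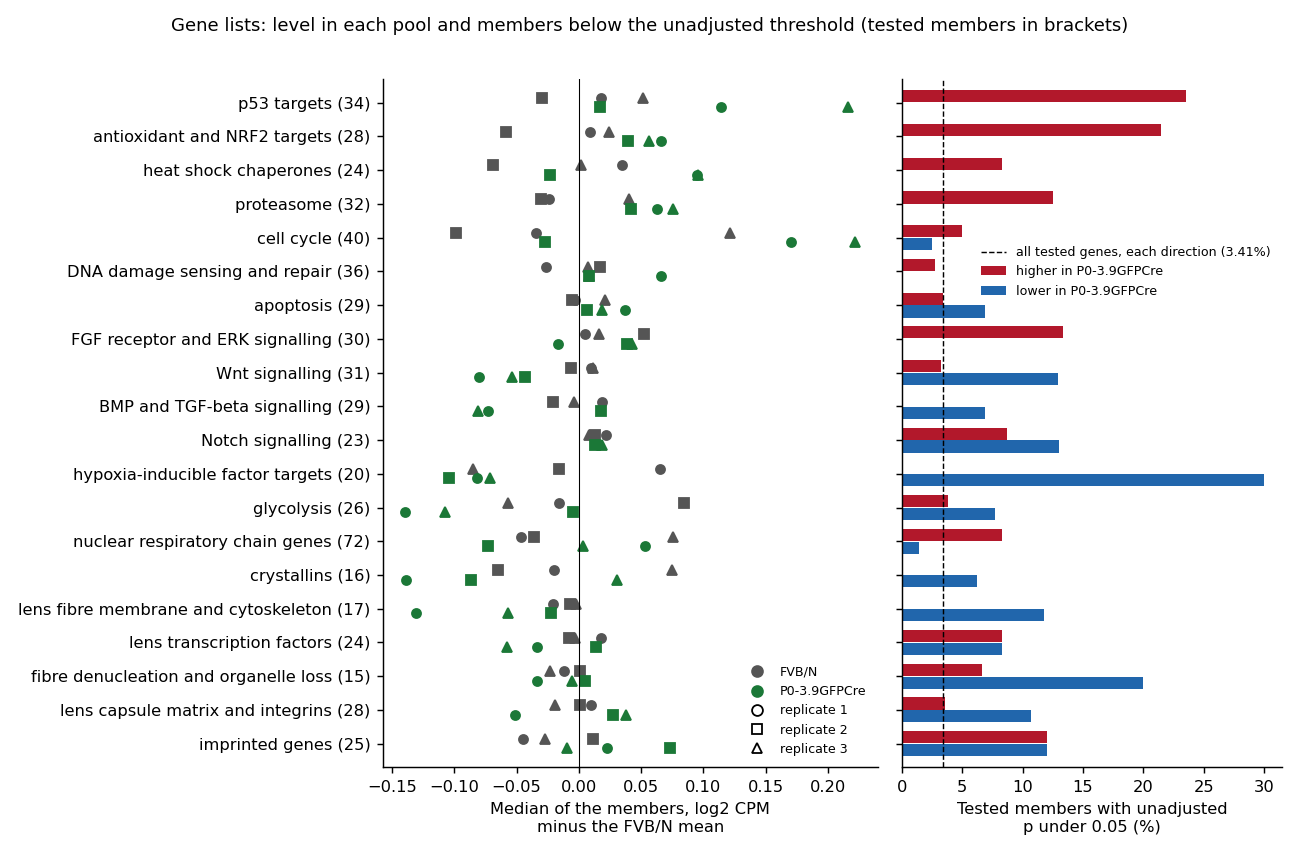
Left, the median over the tested members of 20 gene lists in each *FVB/N* and *P0-3.9GFPCre* pool (horizontal axis, log2 CPM minus the *FVB/N* mean; shapes mark replicates). Right, the share of tested members with an unadjusted edgeR p under 0.05 (%), higher in red and lower in blue, with the 3.41% of all tested genes dashed; hypoxia-inducible factor targets reach 30.0% lower and p53 targets 23.5% higher.

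Targets of p53, the transcription factor that responds to DNA damage, were 8 higher (23.5%) and 0 lower of 34 tested, with a median log2 fold change of 0.15 and 25 higher in value. The count was 3 without *P0-3.9GFPCre* replicate 3, 4 without *FVB/N* replicate 2 and 5 without *FVB/N* replicate 1. It was 3 with the DESeq2 prior and 5 with DESeq2 without it, and with the Y-linked share in the model 5 were higher and 1 lower, with a median of 0.05. *Cdkn1a*, which encodes the cell cycle inhibitor p21 and lies on chromosome 17 from 29090976 to 29100727, varied most among the transgenic pools. It had 1.29, 1.2 and 1.19 CPM in *FVB/N*, 3.74, 1.5 and 5.75 CPM in *P0-3.9GFPCre* and 11.4, 11 and 11.8 CPM in *Le-Cre*. *P0-3.9GFPCre* replicate 2 was thus near the *FVB/N* pools, replicate 3 was between them and the *Le-Cre* pools, and without replicate 2 edgeR called the gene (log2 fold change 1.95, adjusted p = 0.0192). *Eda2r*, a receptor of the tumour necrosis factor family, had 0.227, 0 and 0.246 CPM in *FVB/N* and 0.493, 0.533 and 0.898 CPM in *P0-3.9GFPCre*. *Zmat3*, *Perp*, *Ddit4l*, *Ercc5*, *Ephx1* and *Trp53inp1* were the other 6, with log2 fold changes of 0.24 to 1.47. *Cdkn1a*, *Ddit4l*, *Ephx1* and *Trp53inp1* are also genes of the study's heatmap. Those were chosen on the same samples, so their part in the count is not independent evidence. *Phlda3* had 1.44, 1.89 and 2.29 CPM against 1.85, 1.5 and 3.46 CPM, and its sign changed without replicate 3. Of 36 genes for DNA damage sensing and repair, 1 (2.78%) was higher and 0 lower, against 3.41% of all tested genes in each direction. Of 29 apoptosis genes 1 (3.45%) was higher (*Htra2*, a mitochondrial protease) and 2 (6.9%) lower, among them the survival gene *Bcl2*.

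Cell cycle genes, which are expressed in the dividing epithelium, shifted with the pools. Of 40 tested, 2 (5%) were higher (*Cdk1* and *Mki67*) and 1 (2.5%) lower (*Aurka*), against 3.41% of all tested genes in each direction. The median was 0.16. *Cdk1*, the kinase that drives mitosis, had 22.2, 21.6 and 25.6 CPM in *FVB/N* and 30.8, 26.7 and 30.2 CPM in *P0-3.9GFPCre*. *Mki67* had 47.9, 46.7 and 56.4 CPM against 63.4, 54.9 and 61.7 CPM, so that *FVB/N* replicate 3 overlapped the transgenic pools. Taken by pool, the list median relative to the *FVB/N* mean was 0.17, −0.03 and 0.22 in *P0-3.9GFPCre* replicates 1, 2 and 3 and −0.03, −0.10 and 0.12 in *FVB/N*. Replicate 2 was the lowest transgenic pool for 32 of the 40 genes (80.0%), and this pool was the lowest for 34.5% of all tested genes. The number of higher members was 12 without *P0-3.9GFPCre* replicate 2, 9 without *FVB/N* replicate 3 and 1 without *FVB/N* replicate 2, and with the Y-linked share in the model it was 1, with a median of 0.06. Of 8 markers of lens epithelium, 0 were higher and *Slc38a3*, a glutamine transporter, was lower, and their summed level was 713 to 771 CPM in *FVB/N* and 705 to 769.7 CPM in *P0-3.9GFPCre*.

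Genes that protect against oxidative damage, many of them targets of NRF2, were 6 higher (21.4%) and 0 lower of 28, with a median of 0.09. *Hmox1*, the haem-degrading enzyme, had 125, 141 and 198 CPM in *FVB/N* and 244, 188 and 251 CPM in *P0-3.9GFPCre* (log2 fold change 0.56, standard error 0.16, edgeR, unadjusted p = 0.00490), and *FVB/N* replicate 3 lay above transgenic replicate 2. *Hmox1* is also in the study's heatmap, chosen on these same samples, so its place in the count is not independent evidence. *Gpx4*, which reduces lipid peroxides, had 70.7, 66.5 and 65.8 CPM against 75.1, 89.0 and 80.2 CPM. *Gstp1*, *Sod1*, *Me1* and *G6pdx* differed by log2 fold changes of 0.19 to 0.30. The count was 4 to 6 higher in the fits that left out 1 pool, and with the Y-linked share in the model it was 4, with a median of 0.02. *Slc7a11*, a cystine transporter, was the member with the most uneven pools, at 18.8, 19.96 and 62.6 CPM in *FVB/N* and 20.8, 20.5 and 24.1 CPM in *P0-3.9GFPCre*.

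Each of the FGF, Wnt, BMP and Notch pathways had at most 4 members on one side at an unadjusted p under 0.05. FGF drives lens epithelial cells to become fibres, through ERK. Of 30 tested genes of this pathway 4 (13.3%) were higher and 0 lower, and all 4 are feedback inhibitors or transcription factors switched on by ERK. *Dusp4*, a phosphatase of ERK, had 11.3, 10.4 and 7.82 CPM in *FVB/N* and 13.0, 13.2 and 19.98 CPM in *P0-3.9GFPCre* (log2 fold change 0.65, standard error 0.18, edgeR, unadjusted p = 0.00443). *Etv5*, *Etv4* and *Dusp6* differed by log2 fold changes of 0.24, 0.97 and 0.27, and *Etv4* was at or below 1.48 CPM in every pool of the comparison. The count was 1 without *P0-3.9GFPCre* replicate 3 and with the Y-linked share in the model, and 2 with limma-voom, with the DESeq2 prior and without *P0-3.9GFPCre* replicate 1, *FVB/N* replicate 2 or *FVB/N* replicate 3. The receptors and ligands of the list were not among the 4.

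Of 31 Wnt pathway genes 4 (12.9%) were lower and 1 higher, with 23 lower in value and a median of −0.08. The receptor genes *Fzd1* and *Fzd3* had 55.4 to 57.5 and 26.7 to 28.3 CPM in *FVB/N* and 46.1 to 51.1 and 23.0 to 24.7 CPM in *P0-3.9GFPCre*, with no overlap in either. *Axin2*, a feedback target of the pathway, had 7.19, 9.46 and 8.64 CPM against 5.39, 7.22 and 6.29 CPM, with an overlap, and *Celsr1*, a planar polarity cadherin, had a log2 fold change of −0.15. *Tcf7*, a transcription factor of the pathway, was the higher gene, with 6.85, 5.85 and 6.80 CPM against 8.10, 7.85 and 7.99 CPM. The number of lower members was 2 with the Y-linked share in the model and without *P0-3.9GFPCre* replicate 1, *FVB/N* replicate 2 or *FVB/N* replicate 3. BMP and TGF-beta genes were 0 higher and 2 (6.9%) lower of 29, and Notch genes 2 (8.7%) higher and 3 (13%) lower of 23.

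Crystallin and fibre genes were more often lower than higher in value. Of 16 crystallin genes 12 were lower in value, *Crygb* was lower at an unadjusted p under 0.05 and 0 were higher, with a median of −0.07. With the Y-linked share in the model, 7 of the 16 were lower and the median was −0.19. Of 17 fibre membrane and cytoskeleton genes 13 were lower in value and 2 passed that threshold, *Gja3*, which encodes the fibre connexin 46, and *Grifin*, a lens galectin. *Gja3* had 549, 515 and 519 CPM in *FVB/N* and 474, 494 and 471 CPM in *P0-3.9GFPCre*, a log2 fold change of −0.14 with no overlap of the pools. Of 15 genes for fibre denucleation and loss of organelles 3 (20%) were lower and 1 (6.67%) higher, the last being *Cdk1*. For comparison, *Crygb* was 6.25% of the crystallin genes, and *Gja3* and *Grifin* were 11.8% of the fibre genes. The share over all tested genes was 3.41% in each direction. *Dnase2b*, the nuclease that degrades fibre cell DNA, had 121, 131 and 147 CPM against 109, 102 and 80.7 CPM, and the mitophagy receptors *Bnip3* and *Bnip3l* were the other lower genes. *Bnip3l* had 342 to 352 CPM in *FVB/N* and 313 to 318 CPM in *P0-3.9GFPCre*, a difference small in size. It was larger than the spread of either group, which follows largely from the choice of the gene by p.

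Of 24 lens transcription factors 2 (8.33%) were lower (*Mab21l1* and *Maf*) and 2 (8.33%) higher (*Etv5* and *Mafg*). The share over all tested genes was 3.41% in each direction. *Mab21l1*, which is needed for the lens to form, had 67.1, 65.2 and 70.8 CPM in *FVB/N* and 54.2, 61.6 and 51.2 CPM in *P0-3.9GFPCre* (log2 fold change −0.28, standard error 0.08, edgeR, unadjusted p = 0.00368). *Pax6*, whose promoter drives the transgene, had 133, 134 and 126 CPM against 143, 142 and 131 CPM, and the pools overlapped. Of 15 RNA-binding protein genes of the lens, 1 (6.67%) was higher and 1 (6.67%) lower. *Caprin2* was the higher one, with 1389, 1336 and 1357 CPM against 1505, 1511 and 1793 CPM, and *Cpeb1* was the lower one. Genes for the lens capsule and its integrin receptors were 1 higher (3.57%) and 3 lower (10.7%) of 28. The lower ones included *Col4a3* and *Col4a4*, which form one collagen IV network. Imprinted genes were 3 higher (*Igf2*, *Mest* and *Peg10*) and 3 lower (*Rian*, *Ndn* and *Meg3*) of 25, or 12% on each side. *Rian* had 179, 188 and 234 CPM in *FVB/N* and 161, 162 and 129 CPM in *P0-3.9GFPCre*, and *Igf2*, a growth factor, had 110, 109 and 113 CPM against 145, 127 and 120 CPM. *Meg3* and *Rian* are non-coding RNAs of the same cluster on chromosome 12.

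Markers of cells other than lens cells gave few differences. Of 10 endothelial, 5 macrophage, 6 red blood cell and 10 retinal marker genes tested, 0 were higher and 0 lower at an unadjusted p under 0.05 by edgeR. The 10 endothelial genes together had 126, 133 and 134 CPM in *FVB/N* and 134, 82.9 and 128 CPM in *P0-3.9GFPCre*, so that transgenic replicate 2 was the lowest pool, and none of the 10 was at 0 in either line. *Pdgfra*, which the lens epithelium also expresses, was the lower one of 9 mesenchyme and pericyte markers (log2 fold change −0.28), and *Mitf* was the lower one of 5 pigment cell markers (log2 fold change −0.31). The summed level of all 12 mesenchyme and pericyte markers was 204 to 217 CPM in *FVB/N* and 174 to 181 CPM in *P0-3.9GFPCre*, without overlap. This rested on *Pdgfra*, since without it the sums were 44.6, 46.6 and 39.1 CPM in *FVB/N* and 38.2, 30.8 and 51.1 CPM in *P0-3.9GFPCre*, which overlap. Interferon and DNA-sensing genes were 0 higher and 0 lower of 20. The shares were also counted over the 32 lists with at least 10 tested members, without the genes of the study's heatmap. Of these lists, 19 had a larger share of higher members than all tested genes, and 16 a larger share of lower members. The same lists included 11 with 0 higher members and 13 with 0 lower members. In a short list few members are enough to pass the share of all tested genes. Among the 16 crystallins, for example, 1 lower gene made 6.25%. Nothing is therefore read from these counts of lists.

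The 3 transgenic pools differed among themselves in several lists. The study chose 16 genes on these same samples for its heatmap, and 13 of them were higher in value in *P0-3.9GFPCre*, with 10 higher and 3 lower at an unadjusted p under 0.05, which is not independent evidence because of that choice. Of the 13 genes of the heatmap that were higher in *Le-Cre*, 11 were highest in *P0-3.9GFPCre* replicate 3 and 10 lowest in replicate 2, where replicate 3 was the highest of its line for 32.4% of all tested genes. Their median relative to the *FVB/N* mean was 0.27, 0.24 and 0.69 on the log2 scale in replicates 1, 2 and 3. *Ceacam2*, an adhesion molecule, had 61.9, 45.1 and 58.9 CPM in the 3 transgenic pools and 39.8 to 42.3 CPM in *FVB/N*. *Hyal1*, a hyaluronidase, had 8.80, 16.9 and 8.08 CPM in *P0-3.9GFPCre*, 15.4, 23.6 and 20.9 CPM in *FVB/N* and 7.78 to 8.82 CPM in *Le-Cre*, and its exons overlap those of *Hyal3* and *Naa80*. In both genes replicate 2 was the transgenic pool nearest to *FVB/N*. The same pool was the lowest of its line for 19 of 24 heat shock chaperones (79.2%). Replicate 3 was the highest of its line for 21 of 34 p53 targets (61.8%). The genes whose spread among the transgenic pools exceeded that among the *FVB/N* pools most were, besides the 4 Y-linked genes and a ribosomal pseudogene, *Lrrc17* (9.13, 5.67 and 1.75 CPM), *Lrtm1* (7.49, 2.91 and 8.62 CPM), *Mfap1b* (11.7, 23.3 and 26.8 CPM), *Ccdc122* (7.16, 6.98 and 3.41 CPM) and *Atp10d* (16, 18.2 and 6.06 CPM). The lowest pool was replicate 3 for *Lrrc17*, *Ccdc122* and *Atp10d*, replicate 2 for *Lrtm1* and replicate 1 for *Mfap1b*.

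*FVB/N* replicate 2 resembled the *P0-3.9GFPCre* pools rather than its own line for a small set of genes, which were picked after their values were seen. Among 12438 genes with a mean of at least 1 CPM and an assignment uncertainty under 10%, 30 placed *FVB/N* replicate 2 and the 3 *P0-3.9GFPCre* pools on one side and *FVB/N* replicates 1 and 3 and the 3 *Le-Cre* pools on the other, with a gap of at least 1.25-fold. Of these 30 genes 22 were higher and 8 lower in *FVB/N* replicate 2 and *P0-3.9GFPCre*, they lay on 10 chromosomes, and 10 had a gap of at least 1.5-fold. *Mid1*, a ubiquitin ligase gene at the boundary of the pseudoautosomal region of the X chromosome (169685199 to 170005736), had the widest gap, with 15.8, 141 and 11.6 CPM in *FVB/N*, 140, 147 and 113 CPM in *P0-3.9GFPCre* and 21, 20.8 and 19.3 CPM in *Le-Cre*. *Hgsnat*, a lysosomal acetyltransferase, had 14.3, 28.1 and 11.1 CPM in *FVB/N* and 33.8, 33.8 and 29.1 CPM in *P0-3.9GFPCre*. *Usp11*, a deubiquitinase gene on the X chromosome and the most different of the 47 ubiquitin-specific protease genes by p, had 67.9, 36.8 and 64.0 CPM in *FVB/N*, 33.6, 25.8 and 37.4 CPM in *P0-3.9GFPCre* and 56.1 to 60.2 CPM in *Le-Cre*. The study's heatmap, chosen on these same samples, holds *Usp11*, so its rank among these genes is not independent evidence. In all 3 genes *FVB/N* replicate 2 lay nearer to the *P0-3.9GFPCre* pools than to the other pools of its own line. *Pbx4*, *Adamts4*, *Slc26a11*, *Abca13*, *Lgsn*, *Akr1b8* and *6430562O15Rik* also had a gap of at least 1.5-fold.

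**Figure D5:**
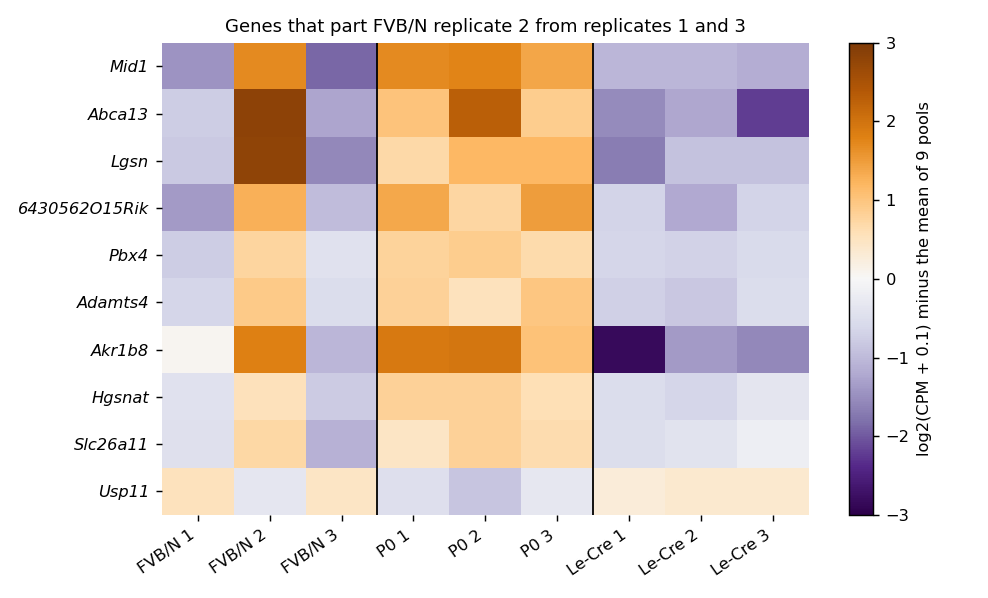
Level of 10 genes in each of the 9 pools (columns; P0 is *P0-3.9GFPCre*), as log2(CPM + 0.1) minus the mean of the 9 pools, in colour. *FVB/N* replicate 2 is on the side of the *P0-3.9GFPCre* columns and *FVB/N* replicates 1 and 3 on that of the *Le-Cre* columns, apart from *Akr1b8* in *FVB/N* replicate 1, which is near the mean; the genes were chosen for this.

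Without *FVB/N* replicate 2, edgeR called 14 genes between the lines, and 9 of them belonged to these 30. *Mid1* then had a log2 fold change of 3.28 (adjusted p = 1.11e-05), *Hgsnat* of 1.34 (adjusted p = 0.00877) and *Usp11* of −1.03 (adjusted p = 0.0203) by edgeR. With all pools, their log2 fold changes were 1.25, 0.86 and −0.80, and none passed the cutoff. The 30 genes were picked because *FVB/N* replicate 2 lay apart from the other pools of its line. Leaving out that pool separates the lines for these genes by construction. The overlap of 9 genes and the adjusted p of *Mid1*, *Hgsnat* and *Usp11* are therefore not independent evidence. *Chrna4* was among the 14 and not among the 30, with a log2 fold change of −0.72 (adjusted p = 0.0468 by edgeR). The cause of the resemblance was not tested.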

How the data were processed

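RNA-Seq was performed by the authors on polyadenylated RNA of whole newborn lenses, as single-end reads that were trimmed with Trimmomatic 0.36, mapped to GRCm38 with GSNAP and quantified with RSEM 1.3.0, per the labels and the study's methods. The deposited expected counts are RSEM's estimates of reads per gene, without normalization. The deposited TPM values, in which length and library size are accounted for, were used in no test. Of 47729 genes, 47310 matched GENCODE M21, the source of coordinates. The annotation release and the strandedness of counting are not given in the sources used here. Exons of 33 of the 105 named genes overlap another gene, and their reads may be shared.

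Expected counts were rounded to whole numbers and tested in R 4.3.3 with edgeR 4.0.16 (TMM, filterByExpr, glmQLFit and glmQLFTest) in 1 model of all 9 pools, with Benjamini-Hochberg adjustment over 15557 genes and the study's cutoff (1.5-fold or more, adjusted p no larger than 0.05). Standard errors were obtained from each log2 fold change and its F statistic, whose square root is the ratio of the former to its error. The test was checked on simulated counts. DESeq2 1.42.0, limma 3.58.1 (voom) and fits with other normalizations, filters, covariates or pools were alternatives. For 1 *FVB/N* sample the description disagreed with the replicate number in the title, which was used.

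The comparison, its 44 gene lists and its tests were chosen with earlier results of these data known. Named were genes past the cutoff in edgeR, DESeq2, the fit of the 6 pools or a fit without 1 pool, the 12 higher and the 12 lower genes with the smallest p whose pools do not overlap (mean of 1 CPM or more, no Gm or Rik names), up to 3 genes per list by p, the 10 genes with the largest excess of spread in *P0-3.9GFPCre* and the genes of the study's heatmap. Other genes were named after their values were seen. CRE transcripts were not analysed here. Results for some genes are not reported here.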

Additional observations from a re-analysis of the deposited data

How the results depend on the processing

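The count of 0 genes past the cutoff became 1 and 11 with DESeq2 with and without a prior, 93 without the filter on low counts and 0 to 14 without 1 pool, namely 3 without *P0-3.9GFPCre* replicate 2, 14 without *FVB/N* replicate 2 and 1 without *FVB/N* replicate 3. The other alternatives gave 0 by edgeR or limma-voom, with 957 to 1076 genes at an unadjusted p under 0.05 in the edgeR fits of 9 pools and 968 in the fit of 6. Without the filter, that number was 1645 in place of 1060. Genes past 1.5-fold numbered 1385 in the main result, 1 with the DESeq2 prior, which shrinks fold changes, 9818 without the filter and 1709 to 2106 without 1 pool, the most without *FVB/N* replicate 2. Same-numbered pools of the 2 compared lines did not deviate together (correlations of deviations −0.079, 0.039 and −0.017). Same-numbered pairs with *Le-Cre* had −0.104 for *FVB/N* replicate 1 and positive values for the rest, up to 0.12. Differently numbered pairs with *Le-Cre* ran from −0.171 to 0.116. A batch shared by number was not tested beyond the replicate block. The fit with the replicate block called 0 genes and left 1049 genes at an unadjusted p under 0.05 and 1449 past 1.5-fold. Of the named genes, *Slc7a11* ranged from −0.92 to 0.17 without 1 pool, the latter without *FVB/N* replicate 3, and *Phlda3* from −0.15, without *P0-3.9GFPCre* replicate 3, to 0.50, and *Phlda3* was −0.10 with the Y-linked share in the model. The causes of these shifts were not tested. Depth and 3 pools per line limit what could be detected, mostly at low levels.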

Other observations

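*AI506816*, a non-coding transcript on chromosome 5, was higher in 1 *FVB/N* pool and in 2 of 3 *P0-3.9GFPCre* pools, with 4.77, 39.6 and 4.79 CPM in *FVB/N*, 6.29, 45.0 and 54.8 CPM in *P0-3.9GFPCre* and 4.59 to 6.78 CPM in *Le-Cre*. It split the pools of each of these 2 lines, and no test was made of it beyond the comparison of the lines (edgeR, unadjusted p = 0.195).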
